A study of Mus musculus with 15 samples.

Results

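The genes described here mark the subtypes of GABA-releasing interneurons: Pvalb, Sst, Vip, Npy, Calb2, Nos1, Lhx6, Reln, Htr3a and Th. They were picked by symbol from a table of normalized read counts for 26595 genes, and each of the 10 symbols matched a row. All 10 also passed the filter on low counts, which kept 17030 genes for testing. The counts came from RNA sequencing of 2 brain regions, cerebral cortex and striatum, in C57Bl/6 males at 5 months of age. Mice labelled KO had the genotype SLC1a4 -/- and so lack ASCT1, a transporter of neutral amino acids such as serine and alanine, and mice labelled WT were the wild-type controls. How the allele was made is not given in the sources used here. There were 4 groups: 4 WT cortex libraries (replicates 5 to 8), 4 KO cortex libraries (replicates 1 to 4), 4 WT striatum libraries (replicates 5 to 8) and 3 KO striatum libraries (replicates 2 to 4). Values per library are listed in the order of these replicate numbers throughout, as the deposited normalized counts.

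Cortical interneurons are a minority among glutamatergic neurons and fall into classes named after what they make. Cells born in the medial ganglionic eminence depend on the transcription factor Lhx6 and make parvalbumin or somatostatin, and cells born in the caudal ganglionic eminence carry the serotonin receptor subunit Htr3a and include the Vip cells. The striatum is built mostly of GABA-releasing projection neurons. Its sparse interneurons include parvalbumin cells, calretinin cells, Th-expressing cells and a class that makes somatostatin, neuropeptide Y and nitric oxide synthase together. In bulk tissue, fewer cells of a type and less RNA per cell cannot be told apart. Several of these genes are also made outside interneurons, as by thalamic neurons (Calb2), pallidal neurons (Pvalb) and dopaminergic neurons (Th).

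The 250 bases before the RefSeq start site (GRCm38.p6) are shown 5′ to 3′ for Vip, the member that fell most between cortex and striatum, for Th, the member that rose most in WT, and for Npy, a peptide gene with a small difference. The Vip window is chr10:5638968-5639217 on the plus strand, the Th window is chr7:142899996-142900245 on the minus strand, and the Npy window is chr6:49822460-49822709 on the plus strand. Capitals mark the letters TGACG, which are part of the cyclic AMP response element TGACGTCA, and TATAAA, a form of the TATA box. Both strands were searched, also for TAATTA, the core of many homeodomain sites. The Th window runs into the first exon of a transcript in the GENCODE M21 annotation.
Vip: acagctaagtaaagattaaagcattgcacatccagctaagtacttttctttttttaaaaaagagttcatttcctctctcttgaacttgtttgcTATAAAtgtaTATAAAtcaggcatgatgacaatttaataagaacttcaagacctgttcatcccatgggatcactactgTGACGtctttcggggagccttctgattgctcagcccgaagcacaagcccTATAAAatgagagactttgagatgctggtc
Th: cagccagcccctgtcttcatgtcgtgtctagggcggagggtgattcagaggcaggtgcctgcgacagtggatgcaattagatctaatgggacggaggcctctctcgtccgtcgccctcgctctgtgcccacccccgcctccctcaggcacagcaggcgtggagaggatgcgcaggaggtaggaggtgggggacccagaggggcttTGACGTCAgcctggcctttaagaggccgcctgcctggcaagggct
Npy: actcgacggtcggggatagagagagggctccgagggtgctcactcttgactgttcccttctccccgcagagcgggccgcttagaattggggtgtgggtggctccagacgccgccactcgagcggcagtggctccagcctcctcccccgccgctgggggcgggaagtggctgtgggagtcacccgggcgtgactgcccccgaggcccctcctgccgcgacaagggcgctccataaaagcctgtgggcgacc
The full element TGACGTCA occurred in the window of Th, from 45 bases before the start, in that of Sst, from 48 bases before it, and in 1.55% of 32851 promoter windows of the same length. The shorter TGACG, which the full element contains, occurred in Nos1, Sst, Th and Vip and in 17.8% of all windows. TATAAA occurred 3 times in Vip, from 157, 147 and 30 bases before the start, and in 12.4% of all windows. TAATTA occurred in none of the 11 windows of the 8 members that the RefSeq table held, and in 4.84% of all windows. These are matches of letters only.

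Libraries held 26791109 to 30276815 counted reads in cortex and 22990233 to 25697792 in striatum. Slc1a4, the targeted gene, was at 249 to 308 in the KO cortex libraries against 1494 to 1797 in WT cortex, and at 158 to 344 in KO striatum against 1237 to 1726 in WT striatum, so the libraries matched their genotype labels. Markers of neighbouring structures were uneven over the striatum libraries. Choroid plexus genes (20 of 20 tested) summed to 158977 in KO replicate 4 and 232294 in WT replicate 5, but to between 10315 and 20530 in the other striatum libraries. Genes of thalamic, septal and pallidal neurons (19 of 19 tested) summed to 60492 in KO replicate 4 and 41244 in WT replicate 8, against 15279 to 24649 in the others. Striatal projection neuron genes (21 of 21 tested) summed to 82937 in KO replicate 4, to 185062 and 181643 in the other KO libraries and to between 160983 and 337009 in WT striatum. Where a call on a member changed without striatum KO 4, WT 5 and WT 8, both values are therefore given. The labels do not state whether replicates were separate animals, and p-values then reflect only the variation among the libraries at hand, which may be technical.

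In WT mice Vip and Htr3a were lower in striatum than in cortex, Th, Nos1, Reln, Calb2 and Pvalb were higher, and Sst, Npy and Lhx6 did not pass the test. In this comparison 5 of the 10 members rose and 2 fell, where 24.9% of all genes tested rose and 25.7% fell (limma, adjusted p below 0.05). The share of members that fell was thus near the background. The median log2 difference was 0.45 over the members and 0.00582 over all genes tested. In KO mice 3 members rose and 3 fell, against 18.4% and 19.5% of all genes tested. Of 9 general GABA neuron genes tested, 5 rose in WT striatum and none fell. Gad2, which encodes an enzyme that makes GABA, went from 5139 ± 291 to 19575 ± 3371 (SD, n = 4 and 4), and the homeobox gene Dlx6 from 140.7 ± 33.7 to 939.8 ± 226 (SD, n = 4 and 4). Projection neurons of the striatum express these genes too.

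**Figure D1:**
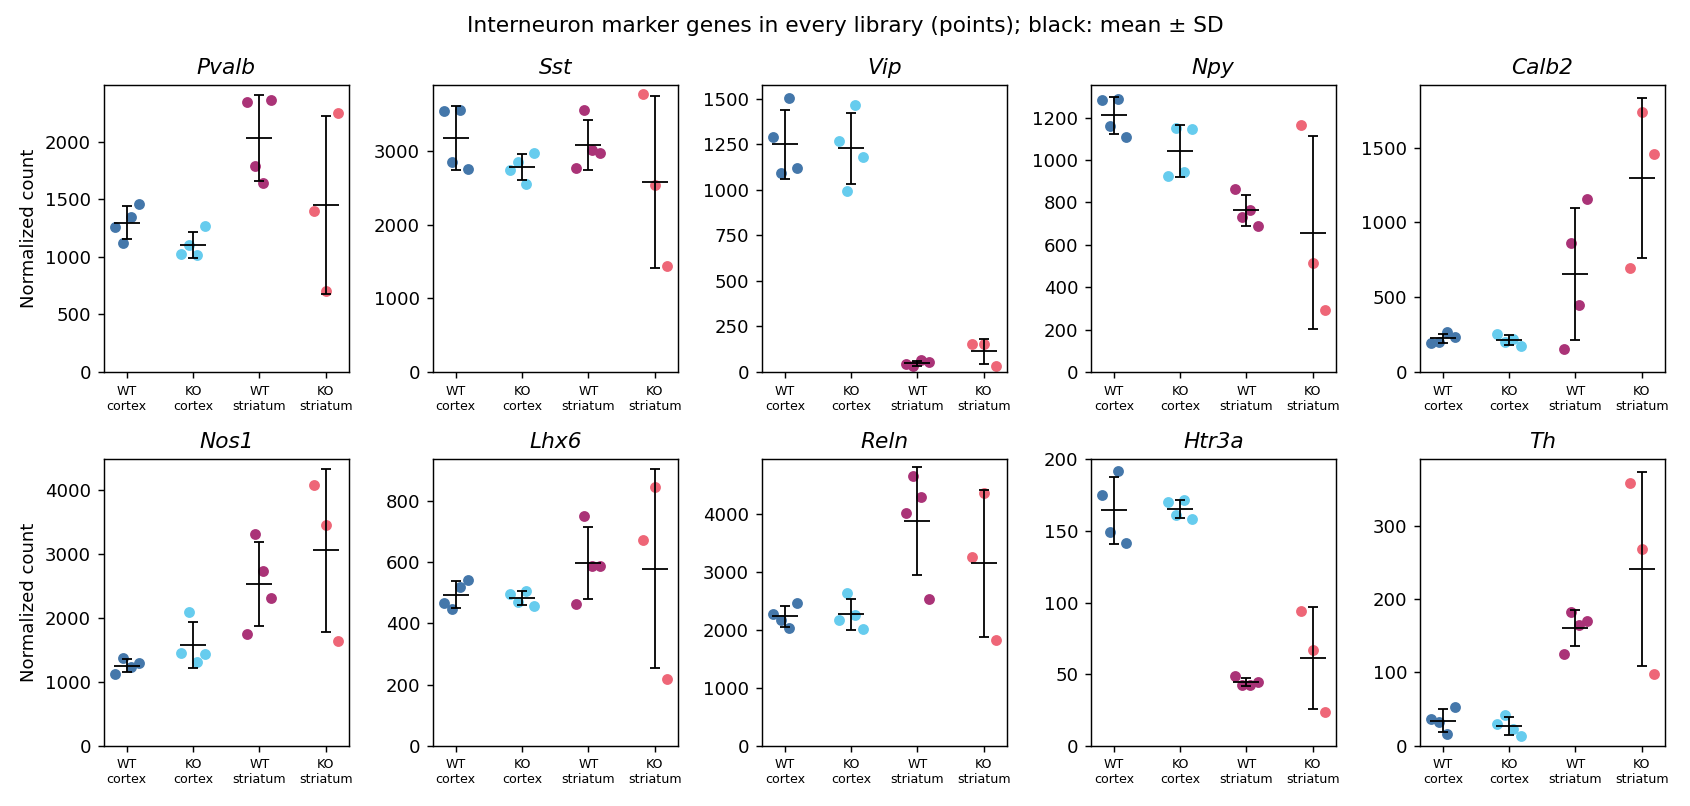
Normalized counts (linear axes from 0) of the 10 marker genes in each library, grouped as WT cortex, KO cortex, WT striatum and KO striatum. Points are libraries and black bars the group mean ± SD. Vip and Htr3a sit lower in all 7 striatum libraries than in any cortex library, and the 3 KO striatum libraries are spread widely for most genes.

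Vip encodes vasoactive intestinal peptide, found in interneurons that mostly inhibit other interneurons (chr10:5639218-5647617, plus strand, GENCODE M21 on GRCm38, as for all positions below). It measured 1288, 1091, 1503 and 1120 in WT cortex and 1271, 992, 1465 and 1183 in KO cortex. It measured 42.1, 33.5, 65.1 and 53.0 in WT striatum and 157, 152 and 34.9 in KO striatum. Every striatum library was below every cortex library. The fall was 25.9-fold in WT (log2 −4.69, SE 0.36, limma adjusted p = 1.39e-07) and 12.8-fold in KO (log2 −3.67, SE 0.39, limma adjusted p = 6.68e-06). Without striatum KO replicate 4, the lowest KO library for Vip, the KO difference was −2.97 (adjusted p = 2.63e-07).

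Htr3a encodes a subunit of the serotonin-gated ion channel and labels the wider caudal class (chr9:48899213-48911099, minus strand). It measured 175, 149, 192 and 141 in WT cortex and 170, 161, 172 and 159 in KO cortex. It measured 48.9, 42.7, 42.6 and 44.5 in WT striatum and 94.2, 66.8 and 23.3 in KO striatum. The tissues did not overlap in either genotype, and the WT striatum libraries lay close together. Htr3a fell 3.60-fold in WT (log2 −1.85, SE 0.29, limma adjusted p = 0.000111) and 3.08-fold in KO (log2 −1.62, SE 0.31, limma adjusted p = 0.000994). The ratio of Vip to Htr3a counts within a library was 6.16 to 8.53 in the 8 cortex libraries and 0.786 to 2.28 in the 7 striatum libraries, so the pair did not fall in proportion.

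Other genes of the caudal lineage and of Vip, Htr3a and neurogliaform cells went both ways in WT striatum. Of 25 tested, 11 were called higher and 7 lower (median log2 0.39), against 24.9% and 25.7% of all genes tested. Among those that rose, Nr2f2, a nuclear receptor gene of caudal progenitors, went from 298.0 ± 38.9 to 1607 ± 503 (SD, n = 4 and 4). Vipr2, a receptor gene for the Vip peptide, went from 15.2 ± 9.18 to 150.03 ± 128, and Penk, the enkephalin precursor, from 1450.1 ± 836 to 22887 ± 6138. Penk also stands in the list of striatal projection neuron genes, of which 21 of 21 rose. Among those that fell, Cck, the cholecystokinin precursor, went from 5838 ± 612 to 763 ± 446. Lamp5, a membrane protein gene of neurogliaform cells, went from 5829.6 ± 806 to 1778 ± 318, and Egln3, an oxygen sensor gene, from 242 ± 32.1 to 94.5 ± 34.7. Cortical excitatory neurons express Cck and Lamp5 as well, and 15 of 19 marker genes of those neurons fell in WT striatum.

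Sst encodes somatostatin, the peptide of interneurons that target dendrites (chr16:23889573-23890958, minus strand). It measured 3548, 2847, 3555 and 2757 in WT cortex and 2765, 3558, 3018 and 2980 in WT striatum. It measured 2751, 2849, 2558 and 2970 in KO cortex and 3782, 2534 and 1447 in KO striatum. The tissues overlapped in both genotypes. The WT difference was −0.04 on the log2 scale with a 95% interval of −0.48 to 0.39 (limma adjusted p = 0.883), and the KO difference was −0.21 with an interval of −0.68 to 0.26 (limma adjusted p = 0.485). Sst differed by −0.54 in KO (adjusted p = 0.0301) once striatum KO replicate 2 was left out.

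Npy encodes neuropeptide Y, made by neurogliaform cells and many Sst cells (chr6:49822710-49829507, plus strand). It measured 1283, 1161, 1288 and 1110 in WT cortex and 864, 733, 764 and 689 in WT striatum. It measured 926, 1150, 945 and 1147 in KO cortex and 1166, 514 and 293 in KO striatum. The tissues overlapped in KO but not in WT. The WT difference missed the threshold (log2 −0.67, SE 0.28, limma adjusted p = 0.0553), and it passed in 8 of 27 alternative analyses. One of those was the fit without striatum KO 4, WT 8 and WT 5 together (log2 −0.69, limma adjusted p = 0.0199). Npy was called lower in KO (log2 −0.89, SE 0.30, limma adjusted p = 0.0289). That call was lost without striatum KO replicate 4 (log2 −0.42, adjusted p = 0.159) or KO replicate 3 (adjusted p = 0.0798), and without cortex KO replicate 2 (0.0617) or KO replicate 4 (0.0651). It was also lost in 5 other settings (adjusted p 0.0604 to 0.197). Those were edgeR, DESeq2, sample weights, a fit of only the groups compared, and limma without striatum KO 4, WT 8 and WT 5 together (log2 −0.42, adjusted p = 0.154). Set against Sst in the same library, Npy stood at 0.337 to 0.408 of its count in the 8 cortex libraries and at 0.203 to 0.313 in the 7 striatum libraries, with no overlap.

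The receptors of these peptides were mostly lower in WT striatum, with 3 of 11 tested called higher and 6 lower (median log2 −1.40). Of all genes tested 24.9% were called higher and 25.7% lower, so the share called higher was near the background. Of the somatostatin receptor genes that fell, Sstr3 went from 706 ± 26.0 to 122 ± 48.0, Sstr4 from 319 ± 51.2 to 77.8 ± 35.4 and Sstr2 from 433 ± 63.5 to 132 ± 49.5 (SD, n = 4 and 4). Sstr5, which rose, went from 4.29 ± 1.63 to 40.0 ± 6.96 and the neuropeptide Y receptor gene Npy2r from 92.0 ± 8.34 to 456 ± 144 (SD, n = 4 and 4). In KO, 3 of 11 were called higher and 5 lower, against 18.4% and 19.5% of all genes tested.

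Pvalb encodes parvalbumin, a calcium buffer of fast-spiking cells (chr15:78191114-78206400, minus strand). It measured 1264, 1125, 1343 and 1460 in WT cortex and 2347, 1787, 1645 and 2360 in WT striatum, with no overlap. It measured 1028, 1102, 1017 and 1269 in KO cortex and 1398, 702 and 2248 in KO striatum, where replicate 3 was below all of cortex. Pvalb rose 1.55-fold in WT (log2 0.64, SE 0.25, limma adjusted p = 0.0447), and in KO it differed by 0.24 (SE 0.27, adjusted p = 0.508). The WT call was lost, with an adjusted p of 0.0516 to 0.108, when any of 12 of the 15 libraries was left out, the exceptions being striatum WT 7, KO 3 and KO 4. Cortex KO 1 to 4 and striatum KO 2 are not in the WT comparison. Leaving out any of them kept the WT difference at 0.64 and changed only the spread that all groups share (adjusted p 0.0516 to 0.0546). The WT call was also lost without a filter on low values (limma adjusted p = 0.0534). Without striatum KO 4, WT 8 and WT 5 together the WT difference was 0.41 (adjusted p = 0.102). Without striatum KO replicate 3 the KO difference was 0.69 (adjusted p = 0.0109).

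Calb2 encodes calretinin, another calcium-binding protein, found in a part of the Vip class and in separate striatal cells (chr8:110137502-110168210, minus strand). It measured 197, 202, 265 and 234 in WT cortex and 155, 861, 451 and 1157 in WT striatum. It measured 257, 200, 223 and 174 in KO cortex and 699, 1738 and 1457 in KO striatum. The tissues overlapped in WT through striatum replicate 5, the lowest of all 15 libraries, and did not overlap in KO. Calb2 rose 2.30-fold in WT (log2 1.20, SE 0.46, limma adjusted p = 0.0413) and 5.70-fold in KO (log2 2.51, SE 0.50, limma adjusted p = 0.00122). Leaving out any of 9 single libraries ended the WT call (adjusted p 0.05 to 0.136): cortex KO 2, KO 3 and WT 5 to 8, and striatum WT 6, 7 and 8. Cortex KO 2 and KO 3 are not in the WT comparison, and without either the difference stayed at 1.20 and only the shared spread changed. The WT call was also lost with voom (adjusted p = 0.0721) and in a limma fit of only the groups compared (adjusted p = 0.0714). Without striatum KO 4, WT 8 and WT 5 together the WT difference in Calb2 was 1.48 (adjusted p = 0.00142). The summed thalamic, septal and pallidal markers ran in the same order as Calb2 over the WT striatum libraries, at 19402, 23275, 20464 and 41244, while in KO they were 15279, 24649 and 60492 with Calb2 highest in replicate 3. Of that list 15 of 19 genes tested rose in WT striatum and 1 fell, against 24.9% and 25.7% of all genes tested. The 1 that fell was Lhx2, from 1652 ± 221 to 601 ± 134. Tcf7l2, a gene of the list picked by hand, was at 916 to 2796 in WT striatum against 89.4 to 113 in WT cortex. The part of these markers in the Calb2 difference was not tested.

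Nos1 encodes neuronal nitric oxide synthase (chr5:117781032-117958840, plus strand). It measured 1119, 1376, 1228 and 1285 in WT cortex and 1749, 3307, 2736 and 2309 in WT striatum. It measured 1450.1, 2094, 1306 and 1434 in KO cortex and 4075, 3449 and 1630.1 in KO striatum. The tissues did not overlap in WT and overlapped in KO, where striatum replicate 4 was below cortex replicate 2. Nos1 rose 1.97-fold in WT (log2 0.98, SE 0.25, limma adjusted p = 0.00439) and 1.84-fold in KO (log2 0.88, SE 0.27, limma adjusted p = 0.0180). The KO call was lost without striatum KO replicate 2 (log2 0.62, adjusted p = 0.0968) or KO replicate 3 (log2 0.74, adjusted p = 0.0736). A limma fit of only the groups compared also lost it (adjusted p = 0.058). Nos1 shares 268 bases of exon with an antisense RNA gene, and the counting is not stated to use strand.

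Of 11 nitric oxide signalling genes tested, 2 rose and 3 fell in WT striatum (median log2 0.02). That is near the background, where 24.9% of all genes tested rose and 25.7% fell. Gucy1a1, a subunit gene of the nitric oxide receptor, went from 3573 ± 337 to 4921 ± 752 and Ddah1, which clears an inhibitor of the synthase, from 2886 ± 220.1 to 3882 ± 399 (SD, n = 4 and 4). Of those that fell, Nos1ap, which encodes a protein that binds the synthase, went from 3420 ± 348 to 1167 ± 137 (SD, n = 4 and 4). Pde5a, a phosphodiesterase gene, went from 479 ± 66.1 to 180.2 ± 52.3 and Gucy1a2, another receptor subunit gene, from 1386 ± 138 to 1024 ± 355.

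Th encodes tyrosine hydroxylase, the rate-limiting enzyme of dopamine synthesis (chr7:142892752-142931128, minus strand). It measured 36.7, 32.3, 15.5 and 53.1 in WT cortex and 125, 182, 165 and 171 in WT striatum. It measured 29.1, 42.1, 22.4 and 13.1 in KO cortex and 358, 268 and 97.4 in KO striatum. Every striatum library was above every cortex library. Th rose 4.91-fold in WT (log2 2.30, SE 0.42, limma adjusted p = 0.000424) and 8.29-fold in KO (log2 3.05, SE 0.46, limma adjusted p = 0.000138).

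Of 10 tested genes of dopamine synthesis and transport, 7 rose and 1 fell in WT striatum (median log2 0.99). Among all genes tested 24.9% rose and 25.7% fell. Slc18a2, the vesicular monoamine transporter, went from 4.80 ± 2.89 to 80.8 ± 29.1, Ddc, the decarboxylase after Th, from 128 ± 36.1 to 387 ± 115, and Aldh1a1, an aldehyde dehydrogenase gene, from 941 ± 137 to 1948 ± 457 (SD, n = 4 and 4). Nr4a2, a transcription factor gene of dopaminergic and deep cortical neurons, was the member of this list that fell, from 849 ± 281 to 164 ± 138 (SD, n = 4 and 4). Of the transcription factor genes in this list, Pitx3 was at most 1.06 and En1 at most 3.28 in any striatum library. Which cells the Th reads came from was not tested. Slc6a3, the dopamine transporter, was at 3.41 to 13.2 in WT striatum and 10.9 to 44.5 in KO striatum.

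Reln encodes reelin, a secreted glycoprotein made by neurogliaform and many Sst cells (chr5:21884454-22344702, minus strand). It measured 2275, 2166, 2042 and 2468 in WT cortex and 4023, 4651, 4303 and 2536 in WT striatum, with no overlap. It measured 2177, 2641, 2256 and 2015 in KO cortex and 3257, 4361 and 1831 in KO striatum, with replicate 4 below all of cortex. Reln rose 1.69-fold in WT (log2 0.76, SE 0.22, limma adjusted p = 0.0102), and in KO it differed by 0.39 (SE 0.24, adjusted p = 0.216). The KO difference was 0.74 (adjusted p = 0.00873) without striatum KO replicate 4. It was also 0.74 (limma adjusted p = 0.000288) without striatum KO 4, WT 8 and WT 5 together. Reln shares 246 bases of exon with an antisense gene whose mean was below 1 normalized count, and the counting is not stated to use strand.

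Of the genes through which cells respond to reelin, 1 of 9 tested was called higher and 4 were called lower in WT striatum (median log2 −0.04). The shares over all genes tested were 24.9% and 25.7%. Vldlr, a reelin receptor gene, went up from 2342 ± 174 to 3509.8 ± 233, while Lrp8, the other receptor gene, went down from 2683 ± 252 to 1439.6 ± 212 (SD, n = 4 and 4). Dab1, the adaptor that both receptors use, went down from 3139.9 ± 236 to 1844 ± 280.4, and Rapgef1, a downstream exchange factor gene, from 4669 ± 200.3 to 3139 ± 82.2.

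Lhx6 encodes the transcription factor of interneurons from the medial eminence (chr2:36081953-36105408, minus strand). It ran from 446 to 542 in WT cortex, from 456 to 505 in KO cortex, from 464 to 751 in WT striatum and from 217 to 847 in KO striatum. The tissues overlapped in both genotypes, and the log2 difference was 0.26 in WT (95% interval −0.37 to 0.89, limma adjusted p = 0.484) and 0.05 in KO (interval −0.63 to 0.73, adjusted p = 0.922). Lhx6 was at 217 in striatum KO replicate 4, its lowest library, and without it the KO difference was 0.65 (adjusted p = 0.00395). Without striatum KO 4, WT 8 and WT 5 together Lhx6 was called higher in WT (log2 0.43, limma adjusted p = 0.00776) and in KO (log2 0.65, limma adjusted p = 0.000721).

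Genes of the same lineage and of Pvalb or Sst cells went both ways in WT, with 11 of 32 tested called higher and 8 lower (median log2 0.00297). Over all genes tested the shares were 24.9% and 25.7%, so the share called lower was near the background. Lhx8, which went from 5.05 ± 5.71 to 312 ± 41.2, and Nkx2-1, from 11.2 ± 5.93 to 213 ± 12.3, encode transcription factors of the medial eminence that adult cholinergic neurons keep, and 8 of 9 cholinergic interneuron genes rose. Tacr1, the substance P receptor gene found on the Sst, Npy and Nos1 cells, went from 72.5 ± 31.9 to 941 ± 148 (SD, n = 4 and 4). Those that fell were led by Cort, a peptide gene related to Sst, from 47.0 ± 20.2 to 2.75 ± 2.62. Satb1, a chromatin protein gene of maturing Sst cells, went down from 5180.2 ± 158 to 758 ± 99.7 and Crhbp, which binds a stress peptide, from 469 ± 54.0 to 86.1 ± 31.0 (SD, n = 4 and 4). Which cells the Tacr1 and Satb1 reads came from was not tested. Tac1 and Pdyn of this list also stand in the striatal projection neuron list.

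**Figure D2:**
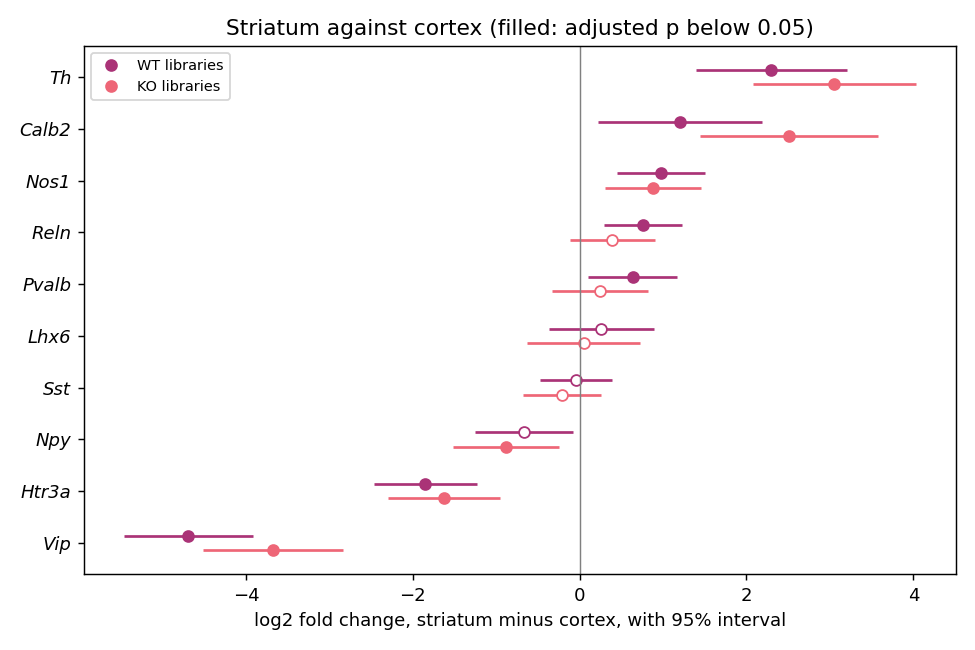
Log2 fold change of each member in striatum against cortex, with its 95% interval, for WT and KO libraries. Filled points have a limma adjusted p below 0.05. Vip and Htr3a lie well to the left in both genotypes and Th to the right, while the intervals of Sst and Lhx6 include 0.

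To compare genes, counts were divided by kilobases of exon, merged over all annotated transcripts of a gene. The lengths of the transcripts present were not known, so the order between genes is approximate. Sst led in WT cortex at 4406 ± 602 normalized counts per kb, followed by Npy at 2138 ± 157, Pvalb at 1247 ± 135 and Vip at 368 ± 55.7 (SD, n = 4), with no overlap between neighbours. Calb2, Nos1, Lhx6, Reln and Htr3a followed at 129 down to 78.9, each overlapping the next, and Th was last at 14.6 ± 6.54. In WT striatum Sst was again first at 4272, Pvalb followed at 1955 and Npy at 1347, with no overlap between them. Calb2, Nos1, Reln and Lhx6 came next at 376 down to 124, each overlapping the one after it, and then Th at 67.9, Htr3a at 21.4 and Vip at 14.2 with no overlap. Vip thus stood in the fourth place in WT cortex and the last in WT striatum. The KO cortex order was the same for the first 4 and the last, and in KO striatum, where the spread was wide, each gene overlapped the next except Calb2 and Nos1.

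The question of the knockout is whether loss of the transporter alters these markers in either tissue. In cortex none of the 10 members was called, where 0.00587% of all genes tested were, and none had an unadjusted p below 0.05 (limma). The log2 differences ran from −0.35 for Th (95% interval −1.26 to 0.56) to 0.31 for Nos1 (interval −0.22 to 0.84), all with an adjusted p of 1. The intervals were −0.62 to 0.25 for Sst, −0.76 to 0.30 for Pvalb and −0.45 to 0.49 for Reln. They were −0.80 to 0.74 for Vip and −0.60 to 0.64 for Htr3a. Intervals and p-values, here and for striatum below, use a spread per gene shared by all cortex and striatum libraries, not by the compared groups alone. KO and WT libraries overlapped for all 10. None of the genes in the interneuron lists was called in cortex.

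In striatum none of the 10 members was called either, against 0.0763% of all genes tested, and 3 had an unadjusted p below 0.05. Those were Vip, at 48.4 ± 13.7 in WT and 115 ± 69.0 in KO (n = 4 and 3, log2 0.99, 95% interval 0.16 to 1.83, limma adjusted p = 0.262), Calb2, at 656 ± 442 and 1298 ± 538 (log2 1.23, interval 0.17 to 2.30, adjusted p = 0.270), and Pvalb, at 2035 ± 373 and 1449 ± 774 (log2 −0.63, interval −1.20 to −0.05, adjusted p = 0.291). KO and WT libraries overlapped for every member. The KO libraries did not move together: Vip, Htr3a, Nos1 and Th were above all WT values in replicates 2 and 3 and below or near the lowest in replicate 4. Pvalb ran the other way, lowest in replicate 3 and near the top of WT in replicate 4. The test of whether the knockout difference itself differed between the tissues called none of the 10 members, against 0.00587% of all genes tested, with Vip at 1.02 and Calb2 at 1.31 (both adjusted p = 0.961).

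**Figure D3:**
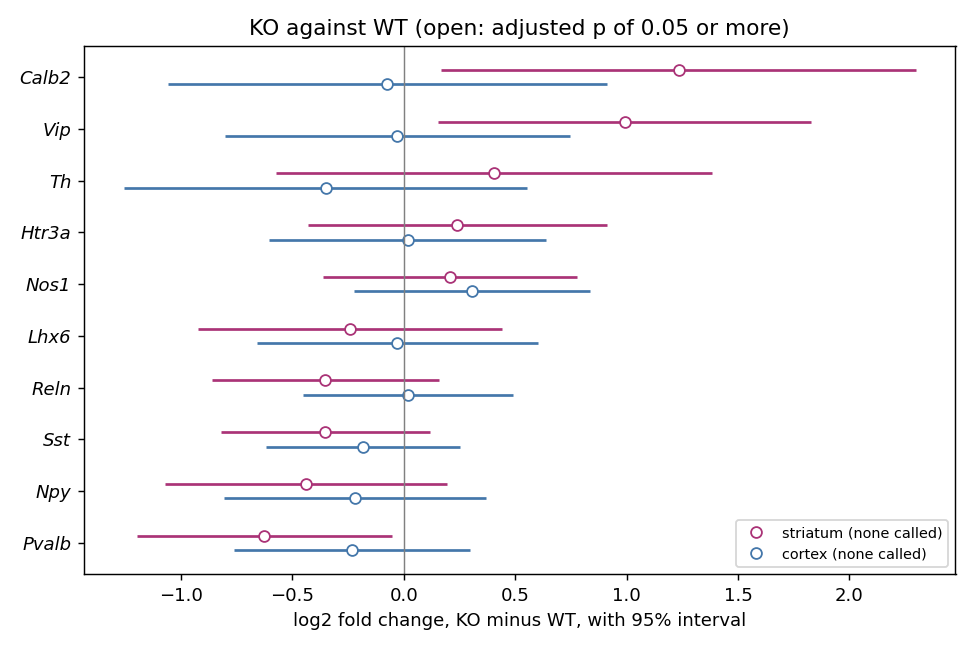
Log2 fold change of each member in KO against WT, with its 95% interval, in striatum and in cortex. Open points have a limma adjusted p of 0.05 or more, and all points are open. Striatal intervals of Vip and Calb2 lie above 0 and that of Pvalb below 0 before adjustment, while every cortical interval includes 0.

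The striatal result depended on each of the 3 KO libraries. Without replicate 2 the difference in Vip was 0.63 and that in Htr3a −0.17, against 0.99 and 0.24 with all libraries, and without replicate 3 that in Pvalb was −0.18, none of them called. Without replicate 4, the library rich in choroid plexus and neighbour markers, Vip (log2 1.70, adjusted p = 0.00253), Htr3a (0.82, adjusted p = 0.0222) and Pvalb (−1.02, adjusted p = 0.0271) passed the limma threshold, and 516 genes did so in all. Without striatum KO 4, WT 8 and WT 5 together Vip (1.70, limma adjusted p = 0.00554) and Htr3a (0.88, limma adjusted p = 0.0332) passed, among 258 genes in all. DESeq2 on all libraries called Vip (1.25, adjusted p = 0.0322), among 320 genes in all. Vip also passed the test of the difference between tissues without KO replicate 4 (1.72, adjusted p = 0.0480) and without KO 4, WT 8 and WT 5 together (1.73, adjusted p = 0.0443). These Vip values rest on 2 KO libraries, at 157 and 152. Calb2 was not called in any alternative, and its difference was 0.66 without striatum WT replicate 5.

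Vip and Htr3a are higher in cortex than in striatum, and markers of cortical excitatory neurons moved with them in part. Over the 19 markers tested, the mean log2 deviation from the striatal mean was −0.65, −0.60, −0.06 and −0.09 in the WT libraries and 0.76, 0.20 and 0.45 in the KO libraries, while their summed counts ran from 30276 to 38448 in WT striatum, from 32737 to 47799 in KO striatum and from 127311 to 135669 in cortex. Neurod2, a transcription factor gene of cortical excitatory neurons, was the list gene called in KO striatum (62.3 ± 34.6 in WT, 309 ± 151 in KO, log2 2.30, adjusted p = 0.0300). Without striatum KO 4, WT 8 and WT 5 together, where Vip and Htr3a were called, 258 of all 17030 genes tested passed in KO striatum. For the difference between tissues 45 passed. In that fit 5 of the 19 cortical excitatory markers were called higher in KO striatum (median log2 of the list 0.91), and 1 for the difference between tissues. Their part in the Vip and Htr3a values was not tested.

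**Figure D4:**
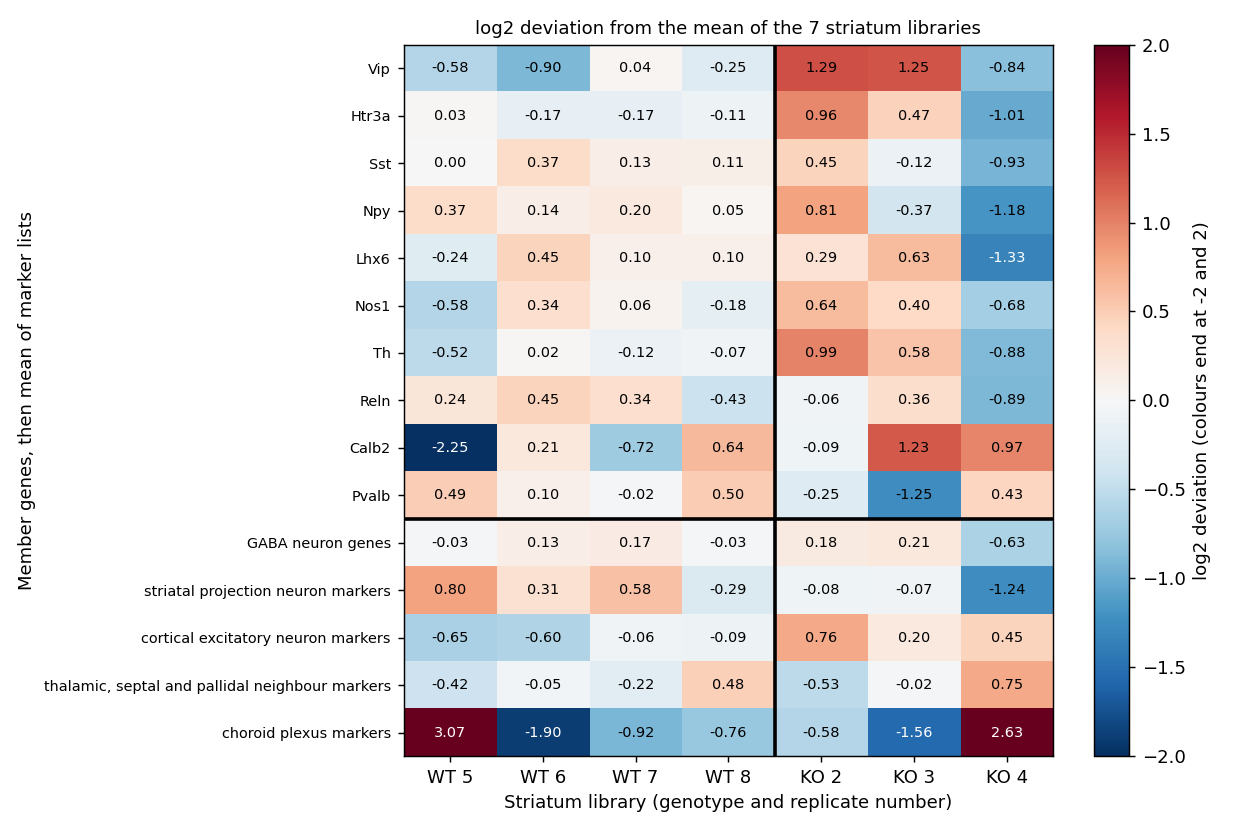
Log2 deviation of each member, and mean log2 deviation of 5 marker lists, from the mean of the 7 striatum libraries (colours end at −2 and 2, numbers are the values). Columns are WT replicates 5 to 8 and KO replicates 2 to 4. Striatum KO 4 is below the mean for 8 of the 10 members, and choroid plexus markers stand at 3.07 in WT 5 and 2.63 in KO 4.

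None of the genes in the interneuron lists passed the test in KO striatum with all libraries. The genes with the smallest p in 3 of those lists were Satb1 (758 ± 99.7 in WT, 1103 ± 168 in KO, adjusted p = 0.0975), Sstr3 (122 ± 48.0 and 303 ± 51.9, adjusted p = 0.0612) and Nr4a2 (164 ± 138 and 499 ± 83.2, adjusted p = 0.128). Without striatum KO 4, WT 8 and WT 5 together, 258 of all 17030 genes tested were called in KO striatum. In that fit 2 genes of the medial lineage list were called higher and 1 lower, 2 neuropeptide receptor genes were called higher, and 2 thalamic, septal and pallidal markers lower. The general GABA neuron genes had a median log2 difference of −0.20 with all libraries and 0.0115 without those 3, and their mean log2 deviation was 0.18, 0.21 and −0.63 in the KO libraries. In that list Dlx6 stood at 940 ± 226 in WT and 659 ± 293 in KO (adjusted p = 0.346).

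Several members rose and fell together from library to library once group means were removed (log2 values, 15 libraries, which share dissection and depth, and of which the KO striatum libraries vary most). Sst went with Htr3a (Pearson r = 0.901) and Npy (0.891), Vip with Htr3a (0.882) and Nos1 with Lhx6 (0.801). Pvalb ran against Lhx6 (−0.798) and Reln (−0.792), and Calb2 was close to none of the others (−0.484 to 0.176). Likeness to a member is Pearson's r of the same deviations, given as a description. Among 13433 genes with a mean of at least 50, those most like each member included Gad2 for Nos1 (0.947) and Dgkb and Grm5 for Reln (0.964 and 0.952). For Sst they were Barx2 and Ngfrap1 (0.929 and 0.910), for Npy Sox21 and Srsf9 (0.931 and 0.924), and for Vip Luc7l3 and Zfp263 (0.952 and 0.942). For Pvalb they were Sept2 and Golga7 (0.945 and 0.944), and for Calb2 Dzank1 and 5330434G04Rik (0.973 and 0.971). The closest gene was Pxylp1 for Lhx6 (0.954), Tpm3 for Htr3a (0.951) and Rubcn for Th (0.934).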

How the data were processed

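RNA of 15 libraries was sequenced from 800 ng of total RNA as single-end reads of 75 bp, per the labels' protocols and the series description. The deposited table holds a normalized signal per gene and library. Tools listed in the submitters' processing notes, with no roles, are DESeq2 1.12.4, HTSeq 0.6.0, TopHat2 2.1.1, cutadapt 1.1 and FastQC 0.11.5, with the build GRCm38. The strand setting and the annotation release are not given in the sources used here. In each library 100% of the values were whole multiples of a step (tolerance 0.001), as read counts divided by a factor are, so counts were recovered for the count-based alternatives.

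Genes at 10 or more in at least 3 libraries were tested on the scale log2(normalized count + 1). The model in limma 3.58.1 (R 4.3.3) had 4 group means, all libraries, 11 residual degrees of freedom and a trend in the prior variance. Each gene had a spread shared by all groups, so libraries outside a comparison also enter its intervals and p-values. Fold changes are on that scale and understate the change of low genes. Benjamini-Hochberg adjustment covered every gene tested within each of 5 comparisons, and a gene was called at an adjusted p below 0.05. The script was tested on simulated data. Alternatives were edgeR 4.0.16, DESeq2 1.42.0, voom, TMM scaling, sample weights, other pseudocounts and filters, a replicate block and leaving out libraries.

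The members and gene lists were chosen with earlier results of these data known. From each list the text names up to 3 called genes with the largest change per direction between WT tissues (mean of at least 20) and, for the knockout, up to 2 called genes or the one with the smallest p. Not every gene so selected is named. Tcf7l2, Pitx3, En1 and Slc6a3 were picked by hand, outside that rule. Positions and exon lengths came from GENCODE M21 and promoters from RefSeq (GRCm38.p6), which held 8 of the 10 members.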

Additional observations from a re-analysis of the deposited data

How the results depend on the processing

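The counts of members called for KO against WT in striatum and for the difference between tissues changed most. In striatum, 0 members were called with all libraries, 1 by DESeq2 and 2 without striatum KO 4, WT 8 and WT 5 together, and 0 to 3 when single libraries were left out. For the difference between tissues it was 0 with all libraries, 1 without those 3 libraries and 0 to 1 when single libraries were left out. Among single libraries the higher counts came without striatum KO replicate 4. In cortex it was 0 under all alternatives run. Between tissues, 5 to 8 members were called in WT and 5 to 7 in KO when single libraries were left out, against 7 and 6 with all, and over the other settings the widest values were 9 in WT with sample weights and 4 in KO in a fit of only the groups compared. Vip, Htr3a and Th were called between tissues in both genotypes, and Nos1 and Reln in WT, in 27 of 27 alternatives. No called member changed direction. Between WT tissues without striatum KO 4, WT 8 and WT 5 together, the genes called higher and lower numbered 6 and 0 for the GABA list, 14 and 10 for the medial lineage list, 13 and 7 for the caudal list, 4 and 6 for the peptide receptors, 1 and 4 for the reelin list, 3 and 2 for the nitric oxide list and 7 and 1 for the dopamine list.

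Replicate numbers are shared across tissues, and the labels do not state whether a number marks the same animal. Of 7 same-numbered pairs, 6 correlated above 0.1 in their deviations from group means (−0.0302 to 0.214). The main test treated all libraries as independent, so its p-values between tissues ignore any such pairing. Of the 7 striatum libraries, 5 correlated best with the cortex library of their own number. With the replicate block 8 members were called between WT tissues (Npy added, adjusted p = 0.0476), 6 between KO tissues and 0 for the difference. KO and WT share no replicate number within a tissue, so no block could be fitted there. Over all genes tested, KO against WT in striatum called 13 with limma, 17 with edgeR, 320 with DESeq2, 3 with voom, 35 with sample weights, 22 without a filter on low values, 0 in a fit of the groups compared alone, and 258 without striatum KO 4, WT 8 and WT 5 together. In cortex it was 1 with limma and edgeR, 2 with sample weights and 3 with DESeq2, and for the difference between tissues 1 with limma and edgeR, 4 with sample weights, 15 with DESeq2, 45 without those 3 libraries and 0 with the replicate block. Depth limits Th in cortex, at 13.1 to 53.1.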
